A study of Mus musculus with 12 samples.

Results

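Expression of 9 genes that mark stromal cells of the gut wall or carry their signals to the epithelium was followed through RNA-seq libraries of mouse ileal and colonic mucosa. The genes were Pdgfra, Foxl1, Bmp4, Bmp5, Grem1, Rspo3, Wnt2b, Wnt5a and Sfrp1. They were taken by symbol from the table of expected counts per gene, and 9 of 9 were found among its 53715 genes. The study compared mice that lack Slc39a8, which encodes the metal transporter ZIP8, in the intestinal epithelium with controls. Both genotypes were on the C57BL/6J strain and both carried the Slc39a8-fl/fl label, and the knockout mice also carried Villin-Cre. The methods of the study describe 8-week-old male mice and controls that mixed floxed, wild-type and Villin-Cre animals. Ileal control, ileal knockout, colonic control and colonic knockout mucosa had 3 libraries each, 12 in all. The Villin promoter is active in epithelial cells, so the stromal cells that make the 9 gene products were not themselves targeted.

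Epithelial stem cells at the base of the intestinal crypt divide under Wnt signals and mature as they move up under bone morphogenetic protein (BMP) signals. Much of both signals comes from the mesenchyme under the epithelium. Wnt ligands bind Frizzled receptors with an LRP coreceptor, and R-spondins hold these receptors at the cell surface by binding LGR proteins and the ubiquitin ligases ZNRF3 and RNF43. BMP ligands bind serine/threonine kinase receptors that phosphorylate Smad proteins, and secreted antagonists such as Gremlin catch the ligand before it binds. Pdgfra encodes a receptor for platelet-derived growth factor and marks intestinal fibroblasts, with the highest levels in the subepithelial cells called telocytes. Foxl1 encodes a forkhead transcription factor of telocytes. Bmp4 and Bmp5 encode BMP ligands, and Grem1 encodes the antagonist Gremlin 1. Rspo3 encodes an R-spondin, Wnt2b a ligand of the canonical pathway, Wnt5a a mostly non-canonical ligand, and Sfrp1 a secreted Frizzled-related protein that binds Wnt ligands.

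On the mm10 assembly the gene on which most of the results turn, Grem1, lies at chr2:113746164-113758646 on the minus strand (gene ENSMUSG00000074934.3, GENCODE M21). Bmp4, the ligand against which it is read below, lies at chr14:46383520-46390669 on the minus strand (ENSMUSG00000021835.15). Pdgfra, used as the reference for the stromal cells, lies at chr5:75152292-75198215 on the plus strand (ENSMUSG00000029231.15). Counts covered whole genes, so no single exon or UTR was measured. RefSeq promoter windows on GRCm38.p6 were at hand for 5 of the 9 genes. The 250 bases before the RefSeq start of these 3 genes are shown because the ratios of Grem1 to Bmp4 and of Bmp4 to Pdgfra are compared below. For Grem1 and Pdgfra the windows do not adjoin the GENCODE start given above. The capitals mark the motifs that were searched for and found.
Grem1: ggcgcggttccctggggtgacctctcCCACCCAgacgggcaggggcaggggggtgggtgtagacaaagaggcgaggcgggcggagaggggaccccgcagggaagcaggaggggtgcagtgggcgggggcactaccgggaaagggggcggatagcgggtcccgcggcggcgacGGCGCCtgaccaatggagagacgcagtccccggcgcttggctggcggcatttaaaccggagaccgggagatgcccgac
Bmp4: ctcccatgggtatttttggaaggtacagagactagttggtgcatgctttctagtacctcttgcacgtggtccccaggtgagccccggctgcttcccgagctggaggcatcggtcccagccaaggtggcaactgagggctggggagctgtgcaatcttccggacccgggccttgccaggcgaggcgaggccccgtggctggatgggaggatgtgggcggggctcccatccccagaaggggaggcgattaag
Pdgfra: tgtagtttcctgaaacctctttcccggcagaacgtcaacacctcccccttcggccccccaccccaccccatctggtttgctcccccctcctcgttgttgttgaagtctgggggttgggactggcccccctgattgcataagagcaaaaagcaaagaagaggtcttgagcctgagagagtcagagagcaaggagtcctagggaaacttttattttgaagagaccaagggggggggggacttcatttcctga
The Grem1 window is at chr2:113758649-113758898, the Bmp4 window at chr14:46390670-46390919 and the Pdgfra window at chr5:75152001-75152250, each printed along its own gene's strand.

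The motifs were the TATA box TATAAA, the forkhead core TGTTTA, the GLI core CCACCCA of Hedgehog signalling, the TCF and LEF core CTTTGA of Wnt signalling and the core GGCGCC bound by BMP-activated Smads, each read on both strands. None of the 5 overlaps another in letters. The Grem1 window held 1 GLI core and 1 Smad core, and neither the Bmp4 nor the Pdgfra window held any of the 5 motifs. Of all 32851 promoter windows in the table, 8.11% held the GLI core and 9.59% the Smad core. The TATA box was in 12.4%, the forkhead core in 12% and the TCF and LEF core in 13.8%. The Grem1 window was 72.0% G and C, the Bmp4 window 63.2% and the Pdgfra window 54.4%, against a median of 52.4% over all windows. These letters describe the windows, and binding was not measured.

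The libraries held 16749138 to 27903083 expected counts. Slc39a8 stood at 8.39, 5.22 and 6.59 counts per 1000000 of TMM-scaled library size (CPM) in ileal controls and at 4.35, 2.62 and 2.80 in ileal knockouts. In the colon it stood at 20.8, 20.5 and 20.1 CPM in controls and at 7.35, 11.5 and 7.93 in knockouts. The levels of the genotypes did not overlap in either tissue, yet the log2 fold change over both tissues, -1.13 (SE 0.17), had an adjusted p of 0.382 over all genes (edgeR). A pair of libraries stood apart from the other ileal ones, replicate 3 of the ileal controls and replicate 1 of the ileal knockouts, and are called low-muscle here. Their smooth muscle markers summed to 180 and 191 CPM, against 2355 to 3285 in the other 4 ileal libraries and 3014 to 4662 in the colon. All 10 smooth muscle markers were lower in both of them, among them Myh11 at 3.34 and 8.29 CPM against 502 to 698. Their epithelial markers summed to 18630 and 19490 CPM, against 19140 to 23080 in the other ileal libraries. Replicate 2 of the ileal knockouts had 2632 CPM of Car1, a carbonic anhydrase of colonic epithelium, against at most 144 CPM in the other ileal libraries and at least 14884 CPM in the colon. The tests on the niche genes in the ileum are therefore given with and without the low-muscle libraries, and the pathway lists with their counts in both. The smooth muscle shortage and the low Grem1 of these libraries were both known when they were set apart.

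All 9 genes were lower in both low-muscle libraries than in any of the other 4 ileal libraries, and they were lower by very unequal amounts. Of all 16558 genes tested, 27.2% lay lower in both. No test was run on this split, which was made after looking at the data. Grem1 differed most. It stood at 74.2 and 55.2 CPM in the ileal control libraries 1 and 2 and at 47.4 and 42.0 CPM in the knockout libraries 2 and 3. In the low-muscle pair it stood at 0.722 CPM in the control and at 0.656 CPM in the knockout, on 17 and 11 counts. Their mean was thus 1.26% of the mean of the others, a 79.4-fold difference, and close to the 1.34% that was the median of the smooth muscle markers.

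The R-spondin gene came next. Rspo3 stood at 3.06, 3.5, 2.54 and 2.84 CPM in the remaining ileal libraries and at 0.297 and 0.358 CPM in the low-muscle ones, 11% of the others. The Wnt ligands followed. Wnt5a stood at 17.1% of its level in the other libraries and Wnt2b at 18.8%, and the inhibitor Sfrp1 stood at 23.1%. The genes of the telocytes and the BMP ligands differed less. Pdgfra stood at 24.5%, at 3.61 and 3.04 CPM against 11.9 to 15.3 CPM. Bmp4 stood at 26.6%, at 1.32 and 1.01 CPM against 4.06 to 4.66 CPM, and Bmp5 stood at 28.8%. Foxl1 stood at 63.5%, but on 4 to 13 counts per library over the whole study, too few for it to pass the filter on low counts. In bulk mucosa, fewer cells of a type and less RNA per cell cannot be told apart.

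**Figure D1:**
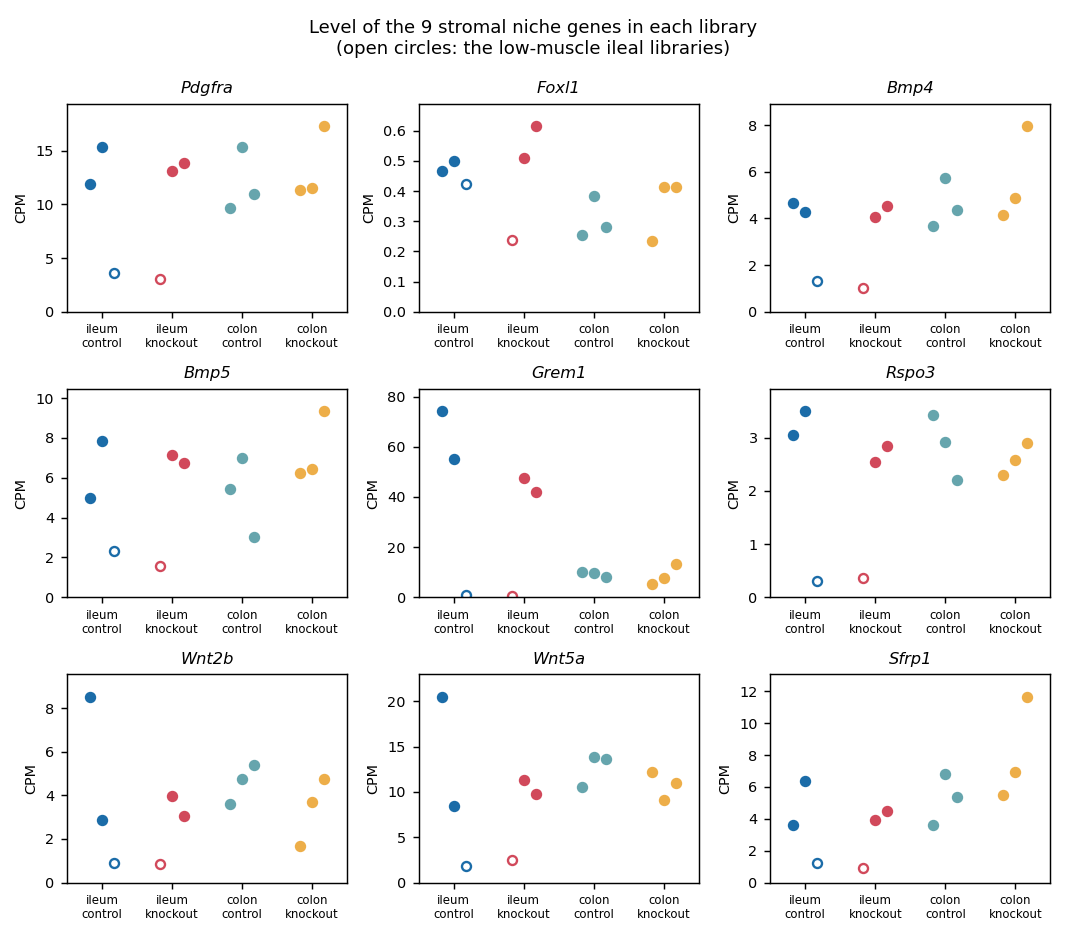
Level of each of the 9 genes, in CPM, in every library of the 4 groups of 3, 1 circle per library, with the low-muscle ileal libraries (control replicate 3 and knockout replicate 1) as open circles. The open circles lie below the other ileal libraries in all 9 panels, and the other 4 ileal libraries all lie above the range of the colon for 2 genes, Grem1 (42.0 to 74.2 against 5.14 to 13.3 CPM) and the sparsely counted Foxl1 (0.466 to 0.616 against 0.236 to 0.415 CPM).

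The same 2 libraries were low in most of the other stromal genes. Of the 18 stromal cell markers 17 were detected widely enough to be tested, and 16 of these were lower in both, with a median of 16.9% of the other libraries. The summed level of the stromal markers was 120 and 132 CPM against 528 to 873 CPM. Dpt, encoding the matrix protein dermatopontin, stood at 3.03%, Lum at 4.06% and Dcn at 4.82%, while Cd81, which many cell types make, stood at 94.9%. The matrix genes Col1a1 and Col3a1 stood at 13.5% and 14.3%, which lies between Rspo3 and Wnt5a. Grem1 was thus lower than any of these stromal markers relative to its level in the other libraries. The part of the smooth muscle layer in these differences was not tested.

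Other antagonists of BMP signalling were low in the same libraries. Of the 11 listed, 9 were tested and 8 of them were lower in both low-muscle libraries, with a median of 9.65%. Chrdl1, encoding a chordin-like antagonist, had 3 counts in the control and none in the knockout of the low-muscle pair, against 2.62 to 6.79 CPM in the others. Fstl1 stood at 12.3%, and Twsg1, which encodes twisted gastrulation, stood at 70.3%. Among the R-spondins, Rspo1 had no count in either low-muscle library and 2.46 to 8.92 CPM in the others. Taking 3 counts as the floor in each library, that is at least 30.8-fold lower. Rspo2 also had no count in them, at least 3.76-fold lower, and Rspo4 had none in any ileal library. Gdf10, a distant member of the BMP family, and Gli3, a transcription factor of the Hedgehog pathway, were likewise without a count there, at least 14.0-fold and at least 10.2-fold lower.

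The receptor genes went both ways. Of the 12 tested BMP receptors and Smads 4 were higher in both low-muscle libraries and 1 was lower, Smad9 at 32.4%, with a median of 104% of the other libraries. Of the 18 tested Wnt and R-spondin receptors 9 were higher in both and 5 were lower, with a median of 105%. Znrf3 and Rnf43, which encode the ubiquitin ligases, stood at 242% and 237% and the coreceptor gene Lrp5 at 170%, whereas Ror1, encoding a receptor for Wnt5a, stood at 12%, Fzd2 at 30.8% and Fzd3 at 41.0%. The BMP ligand genes that epithelium also expresses went either way, with Bmp2 at 67.5% and Bmp7 at 267%. Target genes were read next. Among the BMP targets Id1, Id3 and Id4 were lower in both low-muscle libraries, at 65.8%, 63.0% and 64.5%, and the other 5 tested overlapped, with a median of 92.4% over the 8. Among the Wnt targets 8 of 13 were higher in both, with a median of 148%, and Ascl2, Ephb2, Ephb3 and Sox9, genes of the crypt base and lower crypt, stood at 501%, 360%, 296% and 218%. Lgr5, the stem cell receptor for R-spondins, stood at 20.5 and 16.3 CPM against 3.44 to 6.39 CPM. Nkd1, a feedback inhibitor of the pathway, was the 1 target lower in both, at 18.1%. Over all genes tested, 23.2% were higher in both low-muscle libraries and the median was 97.2%.

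**Figure D2:**
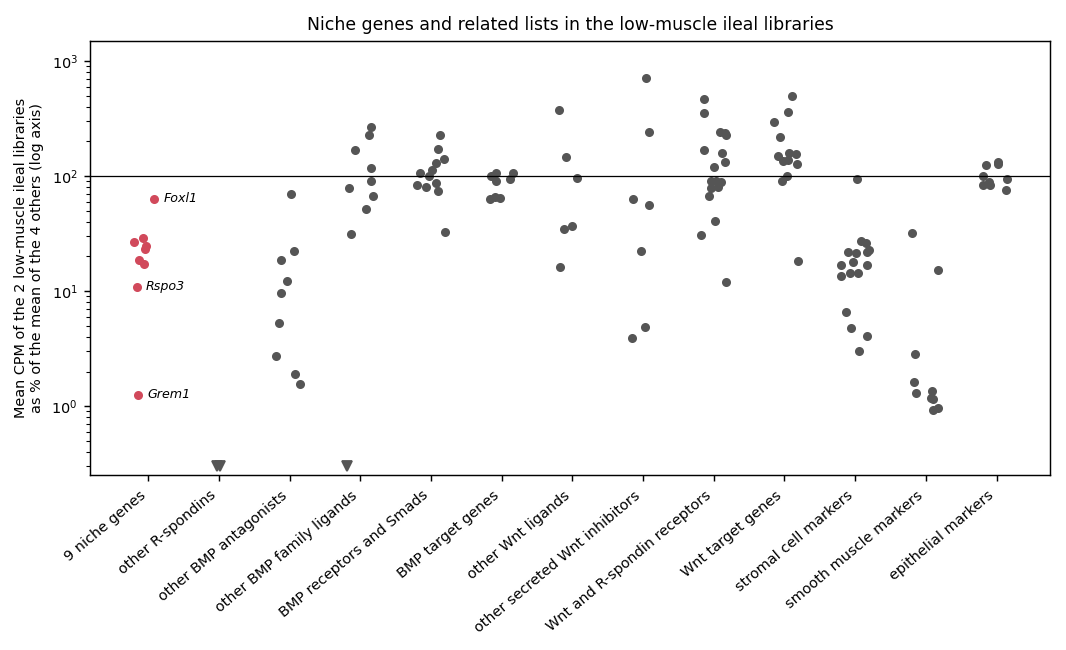
Mean CPM of the 2 low-muscle ileal libraries as a percentage of the mean of the other 4 ileal libraries (log axis), 1 point per gene, for the 9 niche genes and the tested genes of 12 related lists. The line marks 100% and triangles at the lower edge stand for genes with no count in the low-muscle libraries; Grem1 lies at 1.26%, Rspo3 at 11% and Foxl1 at 63.5%, while the receptor lists have medians of 104% and 105% with genes on both sides of the line.

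Because the differences were unequal, the ratios between the genes were read next, as CPM per kilobase of exon so that levels of different genes can be compared. In the other 4 ileal libraries Grem1 was the highest of the 9 at 13.2 ± 3.39 CPM per kb (SD, n = 4), and Bmp4 followed at 1.95 ± 0.12 CPM per kb. Bmp5, Wnt5a, Pdgfra, Wnt2b, Sfrp1 and Rspo3 followed in that order, from 1.66 down to 0.966 CPM per kb, and each overlapped the next. Foxl1 was lowest, at 0.193 ± 0.024 CPM per kb, with no overlap with Rspo3. In the colon Bmp4 and Grem1 led together at 2.28 ± 0.693 and 2.16 ± 0.658 CPM per kb (SD, n = 6), and Foxl1 was again lowest at 0.122 CPM per kb. In the low-muscle libraries Bmp4 was highest at 0.518 CPM per kb and Grem1 ranked seventh of the 9 at 0.166 CPM per kb.

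The ratio of Grem1 to Bmp4 followed these orders. Bmp4 is not the only BMP ligand gene expressed, so this is no balance of antagonist to all ligands. Bmp2, left out of the ratio, stood at 12.1 CPM per kb in the other ileal libraries. It stood at 4.56 CPM per kb in the colon and at 8.19 CPM per kb in the low-muscle libraries. Grem1 exceeded Bmp4 8.63-fold and 6.99-fold in the ileal control libraries 1 and 2, and 6.33-fold and 5.01-fold in the ileal knockout libraries 2 and 3. The ratio lay between 0.671 and 1.46 in the 6 colonic libraries, and it was 0.297 and 0.351 in the low-muscle ones. These 3 ranges did not overlap. The low-muscle libraries were set apart with their low Grem1 known, so the gaps are no independent support for a difference in the ratio. Against Bmp4 and Bmp5 together the Grem1 ratio was 2.74 to 5.40, 0.365 to 0.801 and 0.151 to 0.189 in the same order. The level of Bmp4 relative to the stromal reference varied less. The ratio of Bmp4 to Pdgfra was 1.24 to 1.74 in the other ileal libraries, 1.63 to 2.05 in the colon and 1.49 and 1.63 in the low-muscle libraries, where both genes were low. Bmp5 to Pdgfra gave 1.04 to 1.36, 0.681 to 1.40 and 1.27 and 1.58, a wider range. The ratio of Rspo3 to Pdgfra was 0.629 to 0.834 in the other ileal libraries and 0.545 to 1.15 in the colon, but 0.267 and 0.382 in the low-muscle libraries. Sfrp1 to Pdgfra gave 0.691 to 0.955, 0.861 to 1.54 and 0.674 and 0.782.

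**Figure D3:**
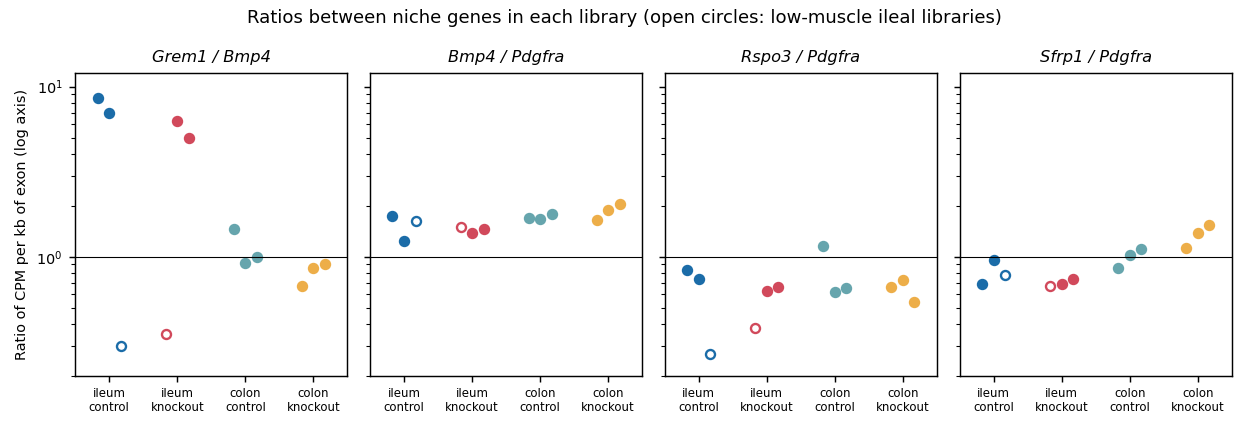
Ratios between 4 pairs of niche genes in every library, from CPM per kb of exon (log axis), with the low-muscle ileal libraries as open circles and a line at 1. Grem1 over Bmp4 spans 5.01 to 8.63 in the other ileal libraries, 0.671 to 1.46 in the colon and 0.297 to 0.351 in the low-muscle libraries, while Bmp4 over Pdgfra stays between 1.24 and 2.05 throughout. The low-muscle libraries were set apart with their low Grem1 known.

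Whether the niche signals differ between ileum and colon was asked within each genotype. Grem1 stood at 9.93, 9.69 and 8.10 CPM in colonic controls and at 5.14, 7.67 and 13.3 CPM in colonic knockouts. The mean of the other 4 ileal libraries, 54.7 CPM, was 6.10-fold the colonic mean of 8.97 CPM. The 4 ileal libraries all lay above the 6 colonic ones, as they did for 19.4% of all genes tested, whereas the low-muscle libraries lay below all 6. With all 12 libraries no niche gene passed the threshold of an adjusted p of 0.1 in either genotype, where 35.9% of the 16558 genes did in control mice and 37.1% in knockout mice. The log2 fold change of Grem1, colon minus ileum, was -2.23 (SE 1.26) in control mice with an adjusted p of 0.214 and -1.79 (SE 1.24) in knockout mice with an adjusted p of 0.309 (edgeR).

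Without the low-muscle libraries Grem1 was lower in the colon of both genotypes. The log2 fold change was -2.83 (SE 0.29, adjusted p = 1.93e-05, edgeR) in control mice and -2.35 (SE 0.29, adjusted p = 8.42e-05) in knockout mice. In this fit 22% of 16896 genes were called lower in the colon of control mice and 21.7% in knockout mice. These libraries were left out with their low Grem1 already known, so the p-values are no independent support for the call. When 1 more ileal library was left out, the ileal arm of that genotype was a single library and the spread came from the other groups, on the assumption that it varies like them. Grem1 was past the threshold in each of those 4 fits, with log2 fold changes of -3.0 to -2.58 in control mice and -2.45 to -2.27 in knockout mice. The difference of 0.48 (SE 0.42) between the 2 genotypes had an unadjusted p of 0.274 and an adjusted p of 1. Omitting only replicate 3 of the ileal controls was enough for the call in control mice (-2.82, adjusted p = 0.0441), while omitting only replicate 1 of the ileal knockouts gave -2.36 with an adjusted p of 0.12 in knockout mice.

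Of the other tested niche genes, only Sfrp1 was called between the tissues in the fit without the low-muscle libraries, and only in knockout mice. With all 12 libraries Sfrp1 was called there with DESeq2, limma-voom or scaling by library size alone, but not with edgeR as set here. It stood at 3.59, 6.39 and 1.23 CPM in ileal controls and at 0.894, 3.95 and 4.50 CPM in ileal knockouts, where 1.23 and 0.894 are the low-muscle libraries. In the colon it stood at 3.64, 6.81 and 5.37 CPM in controls and at 5.51, 6.94 and 11.7 CPM in knockouts. Without the low-muscle libraries Sfrp1 was called higher in the colon of knockout mice, with a log2 fold change of 0.94 (SE 0.36, adjusted p = 0.0655, edgeR), as were 21.5% of genes. With all 12 libraries the value was 1.36 (SE 0.62) with an adjusted p of 0.124. The call was lost when ileal knockout replicate 2 (adjusted p = 0.255) or replicate 3 (adjusted p = 0.183) was left out as well, which leaves a single ileal knockout library. In control mice the same difference was 0.05 (SE 0.37), but the difference of the tissue effect between the genotypes was not past the threshold (0.89, SE 0.51, unadjusted p = 0.11, adjusted p = 1).

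Pdgfra, Bmp4, Bmp5, Rspo3, Wnt2b and Wnt5a had log2 fold changes between the tissues of -0.34 to 0.41 in the 10 libraries, with SEs of 0.23 to 0.46. Their unadjusted p-values lay between 0.196 and 0.999. Their mean levels differed little, as for Pdgfra with 13.6 CPM in the other ileal libraries and 12.7 CPM in the colon, or Rspo3 with 2.99 and 2.73 CPM. Wnt2b and Wnt5a were high in 1 ileal control library, replicate 1, at 8.52 and 20.5 CPM against 2.89 to 3.99 and 8.5 to 11.3 CPM in the other 3. The stromal markers summed to 873 CPM in that library and to 528 to 594 CPM in the other 3. Against that range Wnt2b ran from 1.70 to 5.37 CPM in the colon and Wnt5a from 9.06 to 13.9 CPM. Among the fits run, Wnt5a passed the threshold in control mice only without ileal control replicate 2 and the low-muscle libraries, in which this high library was the whole ileal control arm. Foxl1 ranged from 0.466 to 0.616 CPM in the 4 ileal libraries outside the low-muscle pair and from 0.236 to 0.415 CPM in the colon. With all 12 libraries and no filter on low counts its log2 fold change was -0.57 (SE 0.58) in control mice. Without the low-muscle libraries it was -0.67 (SE 0.8) there with DESeq2.

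**Figure D4:**
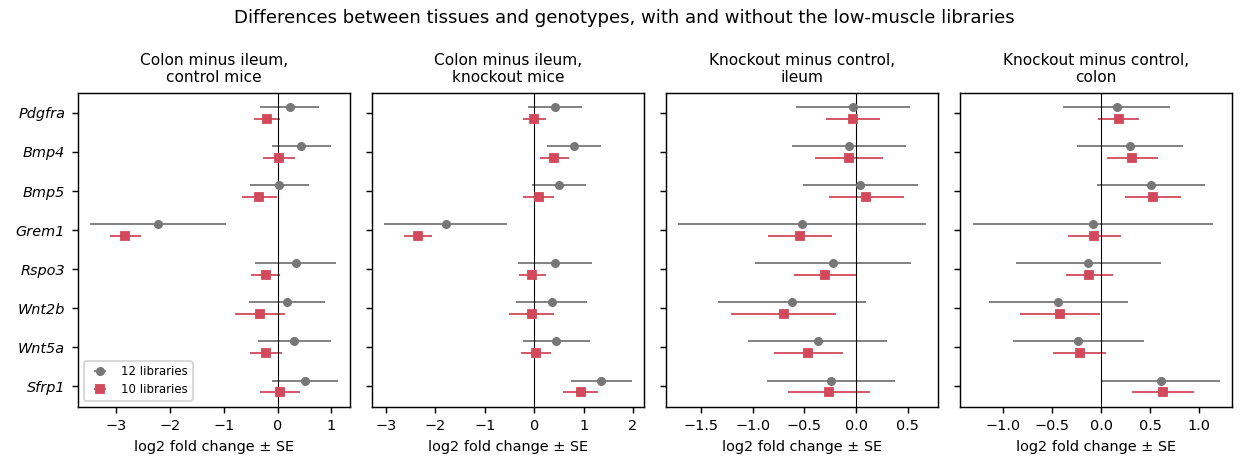
Log2 fold changes with their SE for the 8 tested niche genes between colon and ileum and between knockout and control, from edgeR with all 12 libraries (grey circles) and without the 2 low-muscle ileal libraries (red squares). In both tissue panels the red Grem1 value, -2.83 in control and -2.35 in knockout mice, stands away from 0 while the grey one has an SE of 1.26 or 1.24, and all genotype values lie within 0.70 of 0.

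The loss of Slc39a8 from the epithelium was the study's main question. No niche gene passed the threshold for genotype, over both tissues or in either one, and neither did any of the 16558 genes, 0% in each comparison (edgeR, all 12 libraries). The study itself, using DESeq2 with ileum and colon combined, reported a few altered genes at the same threshold. Slc39a8 and Acer1 were among them, and no niche gene was. At an unadjusted p under 0.05 there were 641 genes over both tissues, 3.87%, and none of the niche genes was among them. Over both tissues the log2 fold changes of the 8 tested genes ran from -0.53 (SE 0.48) for Wnt2b to 0.28 (SE 0.38) for Bmp5. A two-sided exact permutation test, with genotypes exchanged within each tissue, gave unadjusted p-values of 0.455 to 0.87 for the 8 genes over 400 arrangements, and each p was reached by a similar share of all genes, 45% to 87%. Without the low-muscle libraries these p-values were 0.15 to 0.617. With all 12 libraries the levels of controls and knockouts overlapped for every niche gene in both tissues, while over all genes tested they did not overlap for 3.7% in the ileum and 12.8% in the colon. Without the low-muscle libraries 3 of the 9 niche genes did not overlap in the ileum, and neither did 31.2% of all genes tested. Grem1 and Rspo3 were lower in both knockout libraries (Rspo3 at 2.54 and 2.84 against 3.06 and 3.5 CPM). Foxl1 was higher, but on 7 to 13 counts per library, too few to read that gap as a difference.

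Without the low-muscle libraries the SEs were 0.16 to 0.31 in place of 0.37 to 0.82, and no niche gene passed the threshold, against 5 genes or 0.0296% overall (0.0178% for the ileum alone and 0% for the colon). Bmp5 had the largest positive value, 0.36 (SE 0.23, adjusted p = 0.628, edgeR), and Wnt2b the largest negative one, -0.53 (SE 0.31, adjusted p = 0.59). In the ileum Grem1 was 64.7 CPM on average in the 2 remaining control libraries and 44.7 CPM in the 2 remaining knockout libraries. The corresponding log2 fold change of -0.54 (SE 0.31) had an adjusted p of 0.952. In the colon Sfrp1 had a value of 0.63 (SE 0.32, adjusted p = 0.891) and Bmp5 one of 0.53 (SE 0.29, adjusted p = 0.901). Colonic knockout replicate 3 was the highest of the 12 libraries for Pdgfra, Bmp4, Bmp5 and Sfrp1, at 17.3, 7.97, 9.34 and 11.7 CPM. The stromal markers summed to 926 CPM in that library and to 498 to 899.6 CPM in the other 5 of the colon, and their part was not tested. Without that library the log2 fold change of Sfrp1 in the colon was 0.26 in place of 0.61, and that of Bmp4 was -0.02 in place of 0.30. No genotype effect differed between the tissues past the threshold, with differences of 0.18 to 0.89 in the 10 libraries and SEs of 0.33 to 0.65.

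The wider pathway was compared between the tissues in control mice, with values from all 12 libraries unless the 10 are named, where 16.2% of all genes tested were called higher and 19.6% lower in the colon with 12 libraries. Of 10 tested BMP family ligands outside the 9 niche genes, 1 was higher and 4 were lower. Bmp3, which opposes other BMP ligands, was at 105 to 127 CPM in the colon and 37.7 to 88.8 CPM in the ileum, with a log2 fold change of 0.99 (SE 0.27, adjusted p = 0.0187, edgeR). Bmp8b, Bmp7 and Bmp2 were lower, with log2 fold changes of -2.53, -1.44 and -1.15. Of 9 other antagonists 1 was called, Fst, which encodes the activin and BMP binding protein follistatin, higher by 3.0 (SE 0.61, adjusted p = 0.00346). Its levels were low throughout, 2.15 to 4.51 CPM in the colon and 0.17 to 0.722 CPM in the ileum. Of 12 receptors and Smads, Smad4, the Smad shared with TGF-beta signalling, was lower (-1.64, SE 0.22) and Bmpr2 higher (0.30, SE 0.11). Of 8 BMP targets 3 were lower, Msx1, Id2 and Smad7 (log2 fold changes of -3.14, -0.78 and -0.55), and none was higher. In the 10 libraries the counts higher and lower were 3 and 4 of 11 ligands, 2 and 1 of 9 antagonists, 1 and 2 of 12 receptors and Smads and 0 and 5 of 8 targets, and Bmp7 and Bmpr2 were not among them.

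Among the Wnt genes 2 of 6 other tested ligands were lower in the colon. Wnt3, a ligand that Paneth cells of the small intestine make, was at 0.732, 1.39 and 5.52 CPM in ileal controls and had no count in the 3 colonic controls, in which 3 counts would be 0.141 to 0.154 CPM. Wnt6 was lower, at -2.44 (SE 0.65, adjusted p = 0.0157, edgeR). Of 7 secreted inhibitors 2 were higher, Wif1 by 3.86 and Sfrp4 by 2.91, at 2.25 to 3.12 and 0.614 to 0.989 CPM in the colon. Neither Rspo1 nor Rspo2 was called. Of 18 receptors 3 were higher and 5 lower. Fzd3, Fzd8 and Fzd1 were higher by 1.67, 1.46 and 0.71, and Fzd9, Lgr5 and Lrp5 were lower, at -2.71, -1.76 and -1.34. Of 13 Wnt targets 1 was higher and 5 were lower. Axin2, a feedback inhibitor used as a readout of the canonical pathway, stood at 33.4 to 58.9 CPM in ileal and 5.17 to 9.36 CPM in colonic controls, a log2 fold change of -2.77 (SE 0.28, adjusted p = 2.5e-05). Sp5 was lower at -4.13 and Smoc2 at -1.76, whereas Cd44 was higher at 0.82. In the 10 libraries the counts higher and lower were 0 and 3 of 6 ligands, 2 and 0 of 7 inhibitors, 7 and 4 of 18 receptors and 3 and 4 of 13 targets, and Fzd9 and Lgr5 were not among them.

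Of 13 tested Hedgehog and PDGF genes 5 were higher and 1 was lower. Shh, a Hedgehog ligand of the epithelium, was higher by 2.94 (SE 0.57, adjusted p = 0.00277, edgeR), Pdgfd, a PDGF ligand, by 2.21 and Gli1, a target of Hedgehog signalling in stromal cells, by 1.93. Pdgfc, another PDGF ligand, was lower at -1.57. One of the 17 tested stromal markers, the fibroblast gene Pi16, was called higher (2.88, SE 0.70, adjusted p = 0.0101). The median log2 fold change of the stromal markers was 0.74 and that of the tested niche genes 0.27, against 0.02 for all genes. In the 10 libraries these medians were 0.18, -0.21 and 0.03. The 10-library calls were 6 higher and 1 lower of 13 Hedgehog and PDGF genes and 4 higher of 18 stromal markers. No gene of these pathway lists was called for genotype.

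Other genes whose centred log2 CPM ran closest to each niche gene over the 12 libraries were ranked by the root mean square of the difference. Anxa6, an annexin, was nearest to Pdgfra with a difference of 0.136, and Bmp4 itself ranked 3 at 0.184. Bmp5 was nearest to Cmtm3 at 0.286 and had Pdgfra second at 0.292. Rspo3 was nearest to Nxn at 0.198, Sfrp1 to Nid1, which encodes the basement membrane protein nidogen, at 0.203, Wnt5a to Tm4sf1 at 0.239 and Wnt2b to Igfbp7 at 0.30. The nearest to Grem1 were further off in absolute terms, Dgkb at 0.633, Galr2 at 0.699 and Slpi at 0.724. This measure grows with a gene's own spread, and the SD of centred log2 CPM was 2.17 for Grem1 against 0.77 to 1.1 for the other 7 tested niche genes. The larger differences thus do not show that the Grem1 pattern is less shared. The low-muscle libraries, in which the niche genes were all low, are among the 12 points, and their part in this likeness was not tested. All 12 points also share the depth and normalization of their libraries.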

How the data were processed

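RNA-seq libraries from ileal and colonic mucosa were made with oligo-dT cDNA and a NEBNext Ultra II kit, without stated use of strand. Per the labels, reads were aligned with STAR to mm10. The study also names uniquely mapped reads, duplicate removal by UMI-tools and FeatureCounts, but which program wrote the deposited expected counts was not given in the sources at hand. The deposited table gives an expected count for each gene in 12 libraries; 93.7% of its values were whole when rounded to 2 decimals and its 92 spike-in rows summed to 0. Expected counts were rounded, and CPM used TMM-scaled library sizes. Symbols, positions and exon lengths came from GENCODE M21. The members and gene lists were chosen with earlier results of these data known.

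All genes passing filterByExpr (16558) were fitted with edgeR 4.0.16 (quasi-likelihood test, 4 groups, R 4.3.3), with Benjamini-Hochberg adjustment over all genes and a threshold of 0.1. Genotype over both tissues came from a separate edgeR fit with genotype and tissue as additive terms. Each edgeR SE is approximate, being the absolute log2 fold change divided by the square root of the F statistic. DESeq2 1.42.0 (the study used DESeq2 in another version) and limma 3.58.1 (voom) were alternatives, as were other scalings, filters, thresholds and samples. The permutation test used log2(CPM + 0.5); its smallest possible p is 0.005. Scripts were tested on simulated data. Named genes were the 9 niche genes, Slc39a8, up to 3 called genes with the largest change in each direction per pathway list between tissues in control mice, markers that set the low-muscle libraries apart and the 3 nearest genes by pattern; pathway genes named for their low-muscle levels were chosen after their values were seen. Per the labels, RNA was isolated for each mouse, but they do not say which ileal and colonic libraries came from the same animal, so tissues were compared as independent libraries.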

Additional observations from a re-analysis of the deposited data

How the results depend on the processing

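Over the alternatives for scaling, filter, tool, threshold and samples, no niche gene was called for genotype in any comparison. Between tissues, Grem1 kept its direction under every alternative, but with limma-voom on all 12 libraries it moved to -0.35 in control and -0.71 in knockout mice (adjusted p 0.902 and 0.799), and a cause was not tested. Scaling by library size alone moved the median log2 fold change of all genes between tissues from 0.02 to 0.24 in control mice and from 0.01 to 0.29 in knockout mice, and the share of calls that were higher from 45.3% to 66.4% and from 46.1% to 70.8%. With upper-quartile factors that share was 55.2% in control and 58.3% in knockout mice. Those 2 scalings are read relative to these shifts.

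In control mice the count of niche genes called between tissues moved from 0 to 1 (Grem1) without the low-muscle libraries and, chosen after seeing the data, without them in DESeq2, limma-voom or with library size only. It was 1 or 2 when 1 more ileal library was left out, which leaves 1 arm with a single library assumed to vary like the other groups, the second being Wnt5a. In knockout mice it moved from 0 to 1 (Sfrp1) with DESeq2, limma-voom or library size only, to 2 without the low-muscle libraries with edgeR, DESeq2 or limma-voom, and to 3 without them with library size only, where Bmp4 joined. With 1 more ileal library left out it was 1 or 2. Leaving out 1 of the 12 libraries gave counts of 0 to 1 in both genotypes.

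A fit with the replicate number as a block gave 1 call, Sfrp1 in the tissue comparison of knockout mice (1.49, adjusted p = 0.0955), and changed no other call. The deviations of same-numbered libraries correlated at -0.69 to 0.40 between ileal controls and knockouts and at -0.06 to 0.09 between colonic ones. Between ileum and colon they correlated at -0.08 to 0.16 in control and 0.05 to 0.25 in knockout mice. In none of these did every pair exceed 0.1, and the labels tie no number to a mouse, so the number was not taken as a pairing.

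Several values changed sign, and not all of them were near 0. For genotype in the ileum they included Wnt2b, at -0.62 (SE 0.72) in the main fit, and Grem1, at -0.52 (SE 1.20). With limma-voom the values that changed sign were Grem1 (0.04) and Rspo3 (0.03) for genotype over both tissues. In the ileum they were Pdgfra (0.12), Bmp4 (0.04), Grem1 (0.20), Rspo3 (0.24) and Wnt5a (0.22). For the difference between tissues they were Grem1 (-0.37), Rspo3 (-0.34), Wnt2b (-0.43) and Wnt5a (-0.45), and Wnt5a was 0.00 with the block. With library size only they were Pdgfra (0.04) and Bmp4 (0.00) in the ileum and Grem1 (0.03) in the colon. Without the low-muscle libraries the tissue difference turned in control mice for Pdgfra (-0.20), Bmp5 (-0.34), Rspo3 (-0.22), Wnt2b (-0.33) and Wnt5a (-0.21), and in knockout mice for Rspo3 (-0.04) and Wnt2b (-0.05). Omitting single libraries also turned signs. For genotype over both tissues they moved Pdgfra from -0.10 to 0.27, Bmp4 from -0.05 to 0.32, Grem1 from -0.57 to 0.01, Rspo3 from -0.40 to 0.04, Wnt5a from -0.51 to 0.13 and Sfrp1 from -0.02 to 0.52. For genotype in the ileum they moved Pdgfra from -0.44 to 0.40, Bmp4 from -0.47 to 0.35, Bmp5 from -0.31 to 0.52, Grem1 from -1.11 to 0.12, Rspo3 from -0.76 to 0.26, Wnt2b from -1.10 to 0.50, Wnt5a from -0.88 to 0.62 and Sfrp1 from -0.67 to 0.40. For genotype in the colon they moved Pdgfra from -0.05 to 0.37, Bmp4 from -0.02 to 0.49, Grem1 from -0.52 to 0.16 and Rspo3 from -0.27 to 0.02. For the genotype difference of colon against ileum they moved Pdgfra from -0.24 to 0.62, Bmp4 from -0.05 to 0.78, Bmp5 from -0.01 to 0.84, Grem1 from -0.20 to 1.04, Rspo3 from -0.39 to 0.64, Wnt2b from -0.93 to 0.68 and Wnt5a from -0.86 to 0.66. Between tissues in control mice they moved Pdgfra from -0.20 to 0.64, Bmp5 from -0.34 to 0.51, Rspo3 from -0.22 to 0.80, Wnt2b from -0.33 to 1.28 and Wnt5a from -0.21 to 1.31. Between tissues in knockout mice they moved Pdgfra from -0.01 to 0.72, Rspo3 from -0.05 to 0.80 and Wnt2b from -0.06 to 0.78. Counts of 4 to 13 for Foxl1 limited any statement on it.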
